A study of Mus musculus with 18 samples.

Results

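The transcripts of 4 IgG Fc receptors (Fcgr1, Fcgr2b, Fcgr3 and Fcgr4), of the gamma chain that the activating receptors share (Fcer1g) and of 3 chains of the beta 2 integrins (Itgam, Itgal and Itgb2) were followed in bone marrow-derived macrophages (BMDM). These 8 genes were chosen by name from the 18668 rows of the gene table, and all 8 were present. The cells were grown from C57BL6 mouse marrow for 7 days with M-CSF, and were either Apoe-/- or Apoe-/-/Treml4-/- (DKO), so every library, the controls included, carries the Apoe knockout. BMDM of each genotype received vehicle (PBS, untreated) or oxidized low-density lipoprotein (oxLDL) at 10 or 60 µg/ml, with 3 biological replicates in each of the 6 groups. The series text gives 16 hours of oxLDL and the study's methods give 24 hours, a treatment label speaks of LPS, and the labels name more than 1 sequencing platform, and none of these points was resolved. The ages and sexes of the mice were not given in the sources used here.

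Fc gamma receptors bind the constant part of IgG. Fcgr1, Fcgr3 and Fcgr4 (CD64, CD16 and CD16-2) are activating receptors that signal through the tyrosine motif of the Fcer1g chain and the kinase Syk, whereas Fcgr2b (CD32) carries its own inhibitory motif and recruits phosphatases, so the balance between them sets how strongly a macrophage answers to immune complexes. The beta 2 integrins are pairs of the common chain Itgb2 (CD18) with an alpha chain: with Itgam (CD11b) it forms the complement receptor Mac-1, which binds iC3b and ICAM-1, and with Itgal (CD11a) it forms LFA-1, which binds ICAMs. In macrophages both families take part in phagocytosis and adhesion, and oxLDL is the particle that loads such cells with lipid in atherosclerotic lesions.

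The genes of Fcgr2b, Fcgr4, Fcgr3 and Fcer1g lie in that order along chromosome 1 (mm10, GENCODE M21), at chr1:170958617-170976547, chr1:171018920-171029761, chr1:171051174-171064935 and chr1:171229572-171234365. Fcgr1 lies apart from them at chr3:96282909-96293969, Itgal and Itgam lie on chromosome 7 at chr7:127296260-127335138 and chr7:128062640-128118491, and Itgb2 lies at chr10:77530252-77565708. The inhibitory Fcgr2b and the activating Fcgr3 share part of their extracellular coding sequence, which bears on whether short reads could be assigned to one of them. The 2 most alike coding exons are printed because the results below go in opposite directions for these genes: exon 6 of Fcgr2b (chr1:170966446-170966700, minus strand) and exon 4 of Fcgr3 (chr1:171053939-171054193, minus strand) have 255 bases each, of which 5 differ and are given in capitals.
Fcgr2b exon 6: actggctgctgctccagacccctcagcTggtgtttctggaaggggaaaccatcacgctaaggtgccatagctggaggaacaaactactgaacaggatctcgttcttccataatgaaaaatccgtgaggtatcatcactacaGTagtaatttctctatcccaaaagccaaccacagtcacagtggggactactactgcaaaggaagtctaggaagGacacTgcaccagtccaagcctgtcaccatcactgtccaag
Fcgr3 exon 4: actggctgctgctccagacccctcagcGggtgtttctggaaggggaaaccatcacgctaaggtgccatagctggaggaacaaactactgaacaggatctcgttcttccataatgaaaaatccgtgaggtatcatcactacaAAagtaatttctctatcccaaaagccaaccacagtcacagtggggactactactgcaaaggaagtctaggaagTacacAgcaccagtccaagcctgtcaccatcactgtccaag
The identity of this pair was 98.0%, that of the preceding exon pair was 94.5%, and the matching exons of Fcgr4 were 55.7% and 61.6% identical to those of Fcgr2b. Of all 50-base stretches of the annotated transcripts, 9.58% of those of Fcgr3 and 2.92% of those of Fcgr2b occur in the other gene, while none of Fcgr1, Fcgr4, Fcer1g and Itgal occurs in another gene. Of those of Itgam, 66.3% also occur in Gm49368, an annotated same-strand transcript that has no row in the table. How the counting treated reads that match more than 1 gene was not given in the sources used here, so the values of Fcgr2b, Fcgr3 and Itgam carry that uncertainty.

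The 250 bases before the RefSeq start sites (GRCm38.p6) could be matched for 6 of the 8 members. The window of Fcgr1 is printed because it is the only one of the 6 that held the 9-letter pattern of a GAS element, TTCNNNGAA, which reads alike on both strands. Capitals mark that pattern, 109 to 101 bases before the start, and 1 copy of GAGGAA, the core letters bound by the myeloid factor PU.1, which stands on the other strand as TTCCTC 55 to 50 bases before the start (chr3:96293970-96294219, minus strand).
Fcgr1: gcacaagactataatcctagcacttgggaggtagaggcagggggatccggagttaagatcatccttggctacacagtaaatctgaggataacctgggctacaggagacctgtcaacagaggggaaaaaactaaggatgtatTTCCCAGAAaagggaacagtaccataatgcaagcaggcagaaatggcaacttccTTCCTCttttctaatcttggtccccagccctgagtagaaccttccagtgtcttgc
Among all 32851 windows of this length, 7.02% held TTCNNNGAA and 23.3% held GAGGAA on either strand. GAGGAA also stood 6 to 1 bases before the start of Fcgr3 and 22 to 17 bases before that of Fcgr4, Itgam had 2 copies, and the windows of Fcgr2b and Fcer1g had none. These matches describe letters and not binding.

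The libraries held 39.7 M to 54.1 M reads as estimated from the steps of the low values. Values are RPKM, reads scaled to transcript length and to the mapped reads of the library, and can therefore be set side by side between genes. For Fcgr2b, Fcgr3 and Itgam this is limited by the sequence they share with other genes. Treml4 stood at 1.86 to 8.39 RPKM in the 9 Apoe-/- libraries and at 0 in 8 of the 9 DKO libraries, with 0.0116 RPKM in the ninth. Residual reads on Apoe gave 0.349 to 4.13 RPKM. The 7 macrophage markers examined were expressed throughout, led by Lyz2 with up to 9911 RPKM, whereas all 6 dendritic cell, 4 mast cell and basophil, 5 NK cell, 6 T cell and 5 erythroid markers in the table stayed under 1 RPKM, as did 4 of 5 B cell markers. Neutrophil markers reached 39.9 RPKM (S100a9) and fibroblast markers 7.48 RPKM (Col1a2). The 3 libraries of Apoe-/- replicate 2 and the 3 of DKO replicate 3 held Xist transcripts (7.25 to 14.5 RPKM) and at most 0.0515 RPKM from 4 Y-linked genes together, while the other 12 held at most 0.069 RPKM of Xist and 41.7 to 63.4 RPKM from the Y-linked genes.

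At the level of transcripts the shared signalling and adhesion chains were the most abundant members. Averaged over the 18 libraries, Fcer1g stood at 533 RPKM, higher than 99.5% of all rows, followed by Itgb2 at 212, Fcgr3 at 137, Itgam at 100.0, Fcgr2b at 23.2, Fcgr1 at 20.9, Itgal at 17.0 and Fcgr4 at 6.96 RPKM. The 2 chains at the top also varied least, by 1.39-fold and 1.38-fold between their lowest and highest library, whereas Fcgr2b varied by 5.18-fold and Itgal by 4.53-fold. The plot of all 8 transcripts by library shows this order together with the dose steps.

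**Figure D1:**
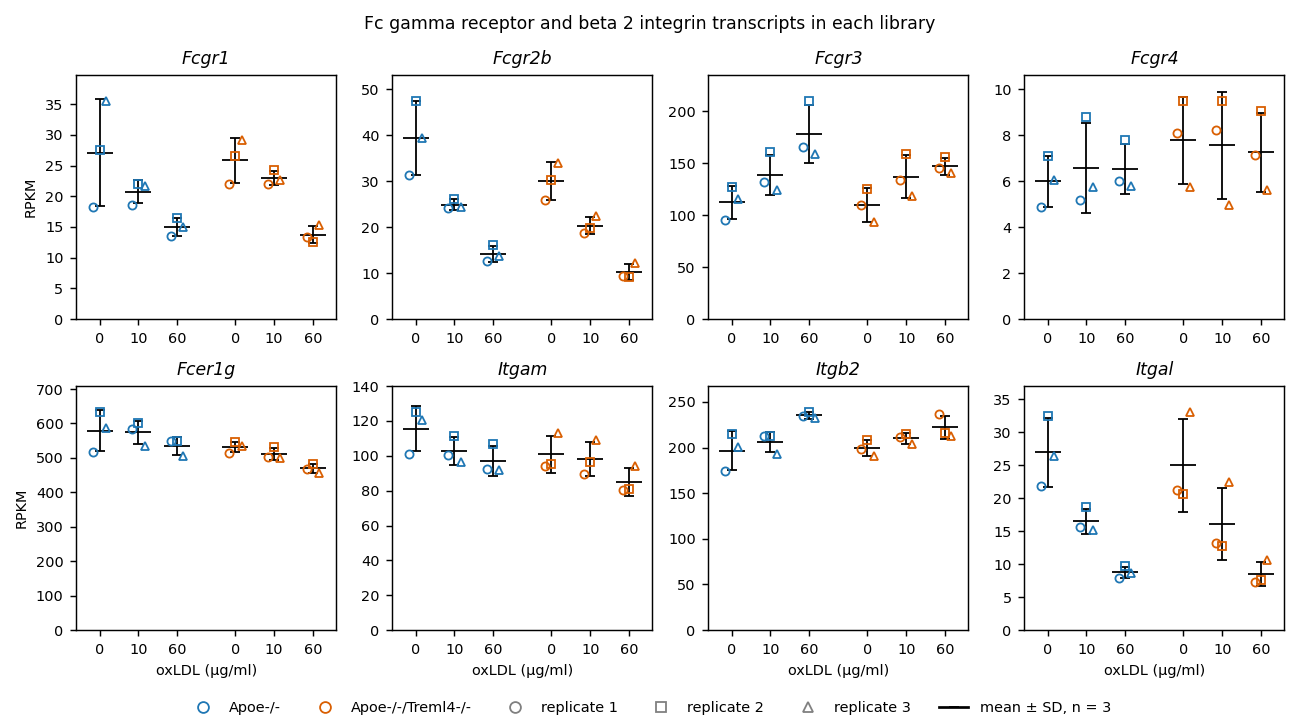
Each panel plots RPKM of 1 gene (y axis, from 0) against the oxLDL dose in µg/ml (x axis) for Apoe-/- (blue) and Apoe-/-/Treml4-/- (orange) libraries, with a symbol for each replicate and the mean ± SD of 3 replicates in black. The means of Fcgr2b and Itgal step down with dose in both genotypes, those of Fcgr3 step up, and Fcer1g stays between 457 and 634 RPKM in all 18 libraries.

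The first question was how the family answered to oxLDL in Apoe-/- BMDM. At 60 µg/ml the inhibitory receptor Fcgr2b, the high-affinity receptor Fcgr1 and the LFA-1 chain Itgal were lower than in untreated cells, the activating receptor Fcgr3 was higher, Itgb2 passed the adjusted p but not the limit on the fold change, and Fcgr4, Fcer1g and Itgam passed neither. A call required a Benjamini-Hochberg adjusted p below 0.05 from limma together with a change of 1.4-fold or more, which held for 4 of 8 members (3 lower, 1 higher) against 13.9% of the 12838 genes tested (6.78% lower, 7.13% higher). The median difference of the 8 members was -0.18 on the log2 scale and that of all genes tested was 0.06. With the libraries rescaled by their median ratio the split over all genes changed from 915 higher and 871 lower to 762 and 1021, and the 4 members remained called in the same directions. The groups did not overlap for 5 of 8 members, against 40.7% of all genes.

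Fcgr2b had 31.3, 47.5 and 39.4 RPKM in the untreated Apoe-/- libraries and 12.7, 16.2 and 13.8 RPKM with oxLDL 60. Every treated library was below every untreated one, by -1.45 on the scale of log2(RPKM + 0.1) (SE 0.14, limma adjusted p = 7.5e-07), which is 0.366 of the untreated level. Itgal fell from 21.9, 32.5 and 26.5 RPKM to 7.91, 9.69 and 8.63 RPKM, again without overlap, a difference of -1.60 (SE 0.22, limma adjusted p = 2.5e-05). Fcgr1 had 18.2, 27.6 and 35.6 RPKM untreated and 13.6, 16.5 and 15.0 RPKM with oxLDL 60; the untreated libraries were widely spread, yet the lowest of them was above the highest treated one, with a difference of -0.80 (SE 0.17, limma adjusted p = 0.0017). In bulk RNA, fewer cells that carry a transcript and less transcript in each cell cannot be told apart.

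Fcgr3 moved the other way, from 94.9, 127 and 115 RPKM to 166, 210 and 159 RPKM. All 3 treated libraries were above all 3 untreated ones, by 0.66 (SE 0.14, limma adjusted p = 0.0017), which is 1.59 times the untreated level. Itgb2, at 174, 215 and 201 RPKM untreated and 234, 239 and 232 RPKM with oxLDL 60, also rose without overlap, by 0.26 (SE 0.07, limma adjusted p = 0.0099), a change of 1.20-fold that is under the 1.4-fold limit. The gamma chain Fcer1g, without which the activating receptors are not held at the surface, had a difference of -0.11 (95% interval -0.27 to 0.04), Itgam had -0.25 (-0.47 to -0.03, limma adjusted p = 0.079), and Fcgr4 had 0.12 (-0.41 to 0.66). Over 16 alternatives the limma adjusted p of Itgam ran from 0.0019 to 0.25, and Itgam was called in none of them. With 3 libraries against 3, an exact permutation test of 1 gene cannot go below p = 0.10, which is the value it gave for each of the 5 genes without overlap.

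In DKO BMDM the same contrast called 3 of 8 members, all lower, against 12.2% of all genes called and 7.31% called lower. Fcgr2b had 25.8, 30.1 and 34.0 RPKM in untreated DKO libraries and 9.29, 9.17 and 12.3 RPKM with oxLDL 60, a difference of -1.54 (SE 0.14, limma adjusted p = 4.1e-07). Itgal had 21.3, 20.6 and 33.1 RPKM against 7.31, 7.60 and 10.7 RPKM, a difference of -1.53 (SE 0.22, limma adjusted p = 4.6e-05). Fcgr1 had 21.9, 26.6 and 29.1 RPKM against 13.3, 12.6 and 15.3 RPKM, a difference of -0.90 (SE 0.17, limma adjusted p = 0.00071). For each of these genes every treated library lay below every untreated one.

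Fcgr3 in DKO cells had 110, 126 and 93.5 RPKM untreated and 145, 156 and 140 RPKM with oxLDL 60. The groups did not overlap, but the rise of 0.43 (SE 0.14, limma adjusted p = 0.032) was under the limit on the fold change, and Fcgr3 was called with the libraries rescaled by their median ratio (0.50, adjusted p = 0.0099) and without DKO untreated replicate 2 (0.54, adjusted p = 0.018). Rescaling also changed the split over all genes from 625 higher and 939 lower to 779 and 792. Fcer1g (-0.18, limma adjusted p = 0.09), Itgam (-0.24, adjusted p = 0.099), Itgb2 (0.15, adjusted p = 0.13) and Fcgr4 (-0.09, adjusted p = 0.83) were not called. Itgam was called in none of 16 alternatives either, with limma adjusted p-values from 0.0028 to 0.35. In all, 6 of 8 members had groups without overlap, against 42.6% of all genes, and the member median was -0.21 beside -0.06 for all genes.

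At 10 µg/ml, Fcgr2b was the single member called in either genotype. In Apoe-/- cells, where 2.79% of all genes were called and 2.04% called lower, it had 24.1, 26.2 and 24.3 RPKM, below each untreated library, with a difference of -0.64 (SE 0.14, limma adjusted p = 0.012). With 2.26% of genes called and 1.69% called lower in DKO cells, it had there 18.8, 19.9 and 22.3 RPKM and a difference of -0.55 (SE 0.14, limma adjusted p = 0.039). The Apoe-/- call was lost without untreated replicate 2 (adjusted p = 0.07) or without oxLDL 10 replicate 1 (0.051). The DKO call was lost without untreated replicate 2 (0.098), untreated replicate 3 (0.21), oxLDL 10 replicate 1 (0.17) or oxLDL 10 replicate 2 (0.14), as it was with no filter on low values (0.093) and with no mean-variance trend in the model (0.069).

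Itgal stood at 15.7, 18.7 and 15.2 RPKM in Apoe-/- and at 13.2, 12.8 and 22.4 RPKM in DKO libraries with oxLDL 10. In Apoe-/- cells all 3 values were below the untreated range, whereas in DKO cells replicate 3 lay above untreated replicates 1 and 2. The differences of -0.69 (SE 0.22, limma adjusted p = 0.068) and -0.64 (SE 0.22, adjusted p = 0.14) did not pass. Libraries of the same number within a genotype varied together, though the labels do not say that they came from 1 animal. With a term for each replicate number within a genotype, Itgal had an SE of 0.07. Its limma adjusted p-values were then 8.2e-06 in Apoe-/- and 2.0e-05 in DKO cells, so that Itgal was called in both, 2 members in place of 1. Groups without overlap were Fcgr2b and Itgal in Apoe-/- cells (2 of 8, against 20.5% of genes) and Fcgr2b in DKO cells (1 of 8, against 18.9%).

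Fcgr1 with oxLDL 10 had 18.6, 22.0 and 21.7 RPKM in Apoe-/- and 22.0, 24.3 and 22.6 RPKM in DKO libraries, which overlapped the untreated values in both. The Fcgr1 differences were -0.34 (SE 0.17, limma adjusted p = 0.26) in Apoe-/- and -0.16 (SE 0.17, adjusted p = 0.83) in DKO cells, and the former was called without Apoe-/- untreated replicate 1, the lowest of its group (-0.60, adjusted p = 0.013). Fcgr3 had 132, 161 and 124 RPKM in Apoe-/- and 133, 159 and 118 RPKM in DKO libraries, differences of 0.31 and 0.32 (SE 0.14 each, limma adjusted p = 0.21 and 0.32). Each of these values was above that of the untreated library of the same genotype and number. Over 16 alternatives each, the limma adjusted p of Fcgr3 ran from 0.0075 to 0.56 in Apoe-/- and from 0.0075 to 0.86 in DKO cells. It was called in none of them. The 4 remaining members had differences between -0.17 and 0.11 at this dose.

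**Figure D2:**
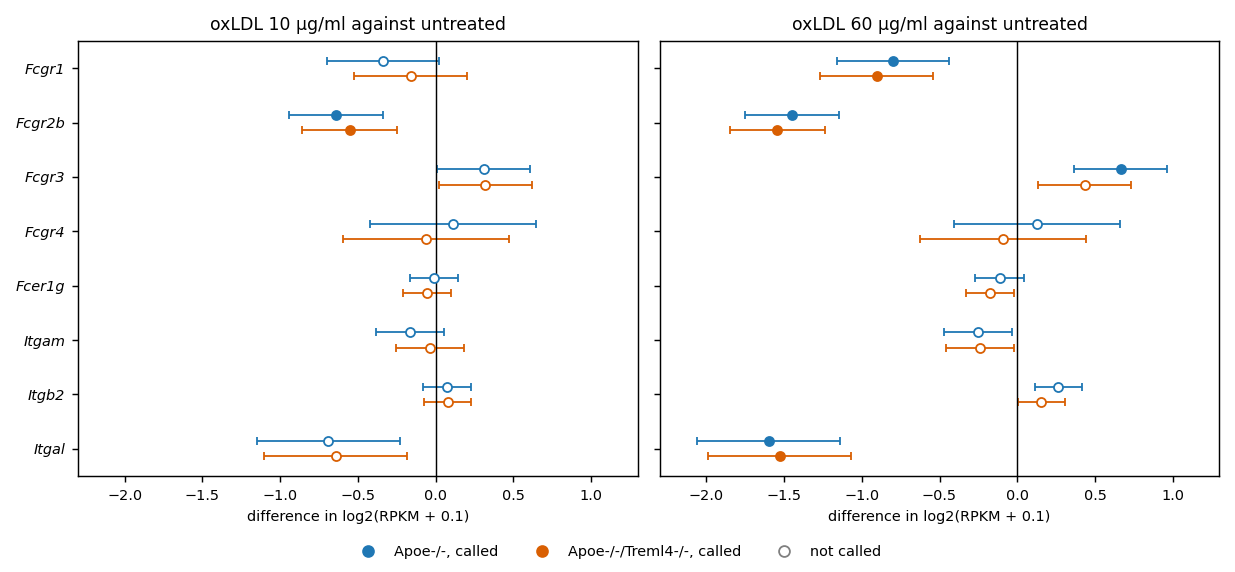
Points give the difference in log2(RPKM + 0.1) of each gene (rows) between oxLDL and untreated libraries at 10 µg/ml (left) and 60 µg/ml (right), with bars for the 95% confidence interval of the limma fit. Filled points were called, and at 60 µg/ml Fcgr1, Fcgr2b and Itgal lie left of 0 in both genotypes while Fcgr3 lies right of 0.

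From 10 to 60 µg/ml, Fcgr2b and Itgal fell further in Apoe-/- cells, 2 of 8 members against 6.46% of genes called and 3.54% called lower. Fcgr2b differed by -0.81 (SE 0.14, limma adjusted p = 0.00094) and Itgal by -0.91 (SE 0.22, adjusted p = 0.0092). In DKO cells Fcgr2b (-0.99, limma adjusted p = 0.00017), Itgal (-0.88, adjusted p = 0.011) and Fcgr1 (-0.74, adjusted p = 0.0069) were called, 3 of 8 against 5.66% of genes called and 3.74% called lower. The Itgal call in DKO cells was lost without oxLDL 10 replicate 3 (-0.62, adjusted p = 0.052). In Apoe-/- cells the groups did not overlap for 4 members (30.5% of genes) and in DKO cells for 4 (33.7%). The comparisons between doses and those against untreated cells share libraries, so they are not independent.

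Because Fcgr2b and Fcgr3 moved in opposite directions, their ratio within each library is given as a description that was chosen after their values were seen. It was 2.88 ± 0.19 (SD, n = 3) in untreated Apoe-/- cells, 5.57 ± 0.52 with oxLDL 10 and 12.5 ± 0.86 with oxLDL 60. In DKO cells it was 3.72 ± 0.84, 6.80 ± 1.4 and 14.7 ± 2.9, and the 3 doses did not overlap in either genotype. Since both genes carry a stretch of near-identical sequence, reads exchanged between them would move these values, and the size of that effect was not tested. Itgam over Itgal went from 4.35 ± 0.42 to 6.24 ± 0.23 and 11.1 ± 0.51 in Apoe-/- cells, and from 4.15 ± 0.64 to 6.40 ± 1.4 and 10.2 ± 1.2 in DKO cells. The rise of Itgam over Itgal restates the fall of Itgal beside the smaller change of Itgam and is no separate result. DKO replicate 3 had the lowest value of both ratios among the DKO libraries of each dose. Its values were 2.75 and 3.42 untreated, 5.3 and 4.86 with oxLDL 10, and 11.4 and 8.83 with oxLDL 60.

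**Figure D3:**
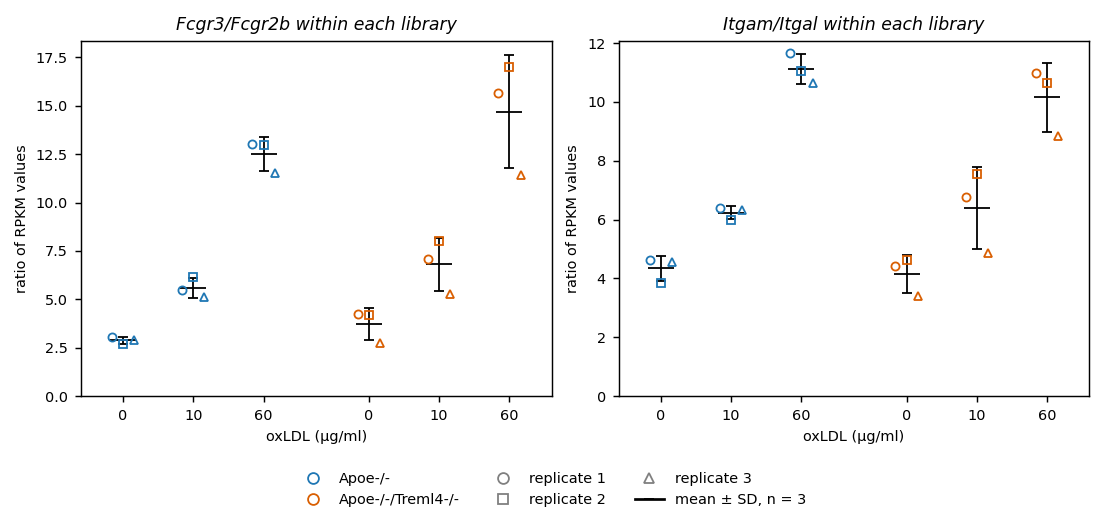
Ratios of RPKM values within each library (y axis, from 0) are plotted against the oxLDL dose in µg/ml for Fcgr3 over Fcgr2b (left) and Itgam over Itgal (right), with 1 symbol for each replicate and the mean ± SD of 3 replicates in black. Both ratios step up with dose in both genotypes, from 2.88 to 12.5 and from 4.35 to 11.1 on average in Apoe-/- cells.

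The other axis of the design asks whether the loss of Treml4 changed these transcripts. None of the 8 members was called between DKO and Apoe-/- cells by limma: 0 of 8 untreated (0.21% of all genes called), 0 of 8 with oxLDL 10 (0.0857%) and 0 of 8 with oxLDL 60 (0.125%). At an unadjusted p under 0.05 there were 1, 1 and 2 members, against 17.3%, 9.75% and 7.88% of all genes. Fcgr2b was lower in DKO cells by -0.38 untreated (95% interval -0.68 to -0.08, limma adjusted p = 0.20), -0.29 with oxLDL 10 (-0.60 to 0.01, adjusted p = 0.52) and -0.48 with oxLDL 60 (-0.78 to -0.17, adjusted p = 0.39), and the groups overlapped in untreated cells but not at either dose. Over 16 alternatives each, the adjusted p of Fcgr2b ran from 0.013 to 0.59 untreated, 0.084 to 0.98 with oxLDL 10 and 0.013 to 0.97 with oxLDL 60. Where the model also held the presence of Xist transcripts, it was 0.013 both untreated and with oxLDL 60, at the same differences, which are under the fold limit. Fcer1g differed by -0.12, -0.17 and -0.18 (SE 0.07 each, limma adjusted p = 0.40, 0.50 and 0.58), with no overlap at either dose. Fcgr1 with oxLDL 10 and Fcgr3 with oxLDL 60 also had groups without overlap, which makes 0, 3 and 3 of 8 members against 19.6%, 12.1% and 16.5% of all genes.

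For the other members the intervals between the genotypes bound what could have been missed. Itgb2 differed by 0.02 untreated (-0.13 to 0.18) and by -0.08 with oxLDL 60 (-0.24 to 0.07), and Itgam by -0.20 (-0.42 to 0.02) and -0.19 (-0.41 to 0.03). For Itgal the interval was -0.58 to 0.34 untreated and -0.51 to 0.41 with oxLDL 60, so a 1.4-fold difference was not excluded by it. Nor was it excluded for Fcgr3 with oxLDL 60 (-0.56 to 0.03) or for Fcgr1 with oxLDL 10 (-0.21 to 0.51) and oxLDL 60 (-0.49 to 0.23). The same held for Fcgr4 untreated (-0.18 to 0.89), with oxLDL 10 (-0.35 to 0.72) and with oxLDL 60 (-0.40 to 0.67). For no member was the response to oxLDL called different between genotypes by the interaction term, with 0 of 8 called at 10 µg/ml and 0 of 8 at 60 µg/ml (0% and 0.0156% of all genes), and with 0 members at an unadjusted p under 0.05 at either dose (1.92% and 9.78% of all genes). The interaction at 60 µg/ml was -0.23 for Fcgr3 (95% interval -0.65 to 0.19, limma adjusted p = 0.69), where the median of all genes was -0.11, and it was -0.09 for Fcgr2b (-0.53 to 0.34) and 0.07 for Itgal (-0.58 to 0.72). With rescaled libraries that median was 0.01.

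Fcgr4, the receptor for IgG2a and IgG2b, was not called with oxLDL in either genotype. It had 4.87, 7.10 and 6.04 RPKM in untreated Apoe-/- libraries, 5.20, 8.82 and 5.75 RPKM with oxLDL 10 and 6.01, 7.79 and 5.82 RPKM with oxLDL 60. In DKO libraries it had 8.11, 9.49 and 5.76 RPKM, 8.22, 9.51 and 4.97 RPKM, and 7.17, 9.05 and 5.61 RPKM, respectively. Replicate 2 was highest in Apoe-/- cells and replicate 3 lowest in DKO cells at each dose, and these are the libraries that held Xist transcripts. With about 266 to 585 reads in each library, Fcgr4 was also the member with the lowest depth.

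Between genotypes Fcgr4 differed by 0.36 untreated (SE 0.25, limma adjusted p = 0.48), 0.18 with oxLDL 10 (adjusted p = 0.82) and 0.14 with oxLDL 60 (adjusted p = 0.91). Without the 6 libraries with Xist transcripts, which leaves 2 libraries in each group, Fcgr4 was called higher in DKO cells untreated (0.68, SE 0.13) and with oxLDL 10 (0.68, SE 0.13), at limma adjusted p-values of 0.012 and 0.028. Fcgr2b was then called lower in DKO cells with oxLDL 60 (-0.52, SE 0.11, adjusted p = 0.045). Among libraries with Xist transcripts each group has 1, so no test was possible there, and Fcgr4 was lower in the DKO library at each dose (5.76 against 7.10, 4.97 against 8.82 and 5.61 against 7.79 RPKM). The genotype difference of Fcgr4 had opposite directions in the 2 kinds of library. The libraries with Xist transcripts come from 1 replicate number in each genotype, so the kind of library and the replicate cannot be told apart. Libraries of the same number varied together, so neither the doses nor the 2 Fcgr4 calls are independent. Itgal, Fcgr2b and Itgam were highest in the library with Xist transcripts in each of the 6 groups. Fcgr3 was highest in that library at each dose in Apoe-/- cells and lowest in it at each dose in DKO cells. Fcgr1, Fcer1g and Itgb2 had no such order in all 6 groups. The plot that joins libraries by replicate number shows Fcgr4, Fcgr3 and Itgal.

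**Figure D4:**
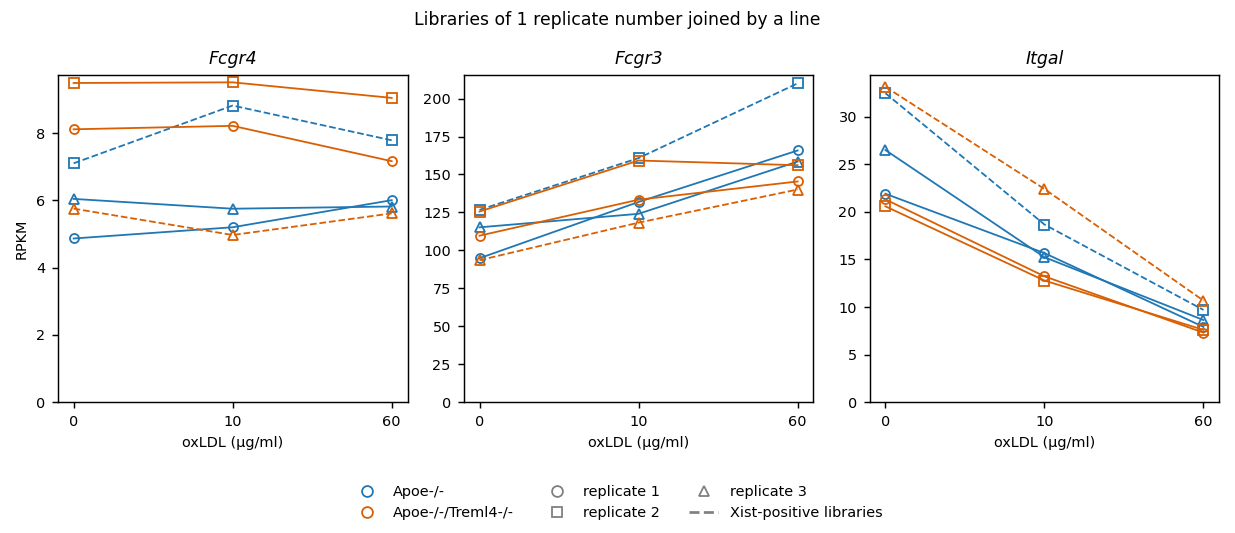
RPKM (y axis, from 0) of Fcgr4, Fcgr3 and Itgal is plotted against the oxLDL dose in µg/ml, and a line joins the 3 libraries of 1 genotype and replicate number, dashed for the libraries that held Xist transcripts. Fcgr4 lines lie between 4.87 and 9.51 RPKM with no common direction and cross in places, while Itgal falls along all 6 lines.

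The partners and the downstream machinery of these receptors were taken from 7 lists, none of which shares a gene with the 8 members. Their counts at oxLDL 60 are to be read beside the 13.9% of all genes called in Apoe-/- cells and the 12.2% called in DKO cells, and their medians beside 0.06 and -0.06 for all genes. Among the other Fc receptors, 4 of 11 passed the filter on low values, and at oxLDL 60 in Apoe-/- cells Fcrl1 rose by 1.45 (SE 0.10, limma adjusted p = 1.8e-08) while Trim21, a cytosolic antibody receptor, fell by 1.11 (SE 0.10, adjusted p = 2.8e-07). Of 26 kinases, adaptors and phosphatases of Fc receptor signalling, 3 were higher and 8 lower in Apoe-/- cells, and 2 higher and 6 lower in DKO cells, with list medians of -0.16 and -0.20. The adaptor Lat2 rose by 1.09 (SE 0.08, limma adjusted p = 3.8e-08), and the exchange factor Vav3 by 0.76 and the kinase Fyn by 0.49. The Src family kinase Fgr fell by 1.38 (SE 0.25, adjusted p = 0.00038), and the phosphatase Ptpn6 (SHP-1), which inhibitory receptors recruit, fell by 0.98 (SE 0.09, adjusted p = 1.9e-07). In DKO cells Lat2, Vav3, Fgr and Ptpn6 were called in the same directions and Fyn was not (0.34, adjusted p = 0.015, under the fold limit). The kinase Syk and the phosphatase Inpp5d of the same list, added here for their roles, were not called in either genotype. Their differences were 0.02 and 0.05 in Apoe-/- cells and 0.07 and -0.03 in DKO cells.

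Of 15 other integrin chains that passed the filter, 2 were higher and 4 lower in Apoe-/- cells, and 1 higher and 3 lower in DKO cells, against 13.9% and 12.2% of all genes, with list medians of -0.07 and -0.01 beside 0.06 and -0.06. Itga4, the VLA-4 chain that binds VCAM-1 and fibronectin, fell by 1.68 (SE 0.15, limma adjusted p = 1.9e-07) from 11.9 ± 2.4 to 3.63 ± 0.34 RPKM (SD, n = 3). Itga5, a fibronectin receptor chain, fell by 0.65 and Itga1, a collagen receptor chain at 0.362 RPKM, by 0.83, while Itga9 and Itgb3 rose by 0.96 and 0.86 from means of 0.973 and 0.439 RPKM. In DKO cells Itga4, Itga5 and Itga9 were called in the same directions, and Itga1 (-0.45, limma adjusted p = 0.047) and Itgb3 (0.68, adjusted p = 0.084) were not. Itgax and Itgad, the remaining alpha partners of Itgb2, which were added here for that role, had differences of -0.11 (SE 0.39) and -0.07 (SE 0.22) and means of 5.24 and 0.304 RPKM in untreated Apoe-/- cells.

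Of the 18 genes of integrin activation and linkage to actin, 2 were higher (Ptk2 by 0.61, Cyth1 by 0.51) and 2 lower (Vcl, the linker vinculin, which fell by 0.89, and Fyb, which fell by 0.64) in Apoe-/- cells, and Vcl and Fyb were the 2 called in DKO cells. The 2 of 18 in DKO cells were a share near the 12.2% of all genes called there, and the list medians were -0.01 and -0.09. Among 7 ligands of the beta 2 integrins, 0 were higher and 2 lower in both genotypes, with medians of -0.25 and -0.45. C3, whose fragment iC3b Mac-1 binds, fell from 45.2 ± 9.0 to 9.05 ± 0.82 RPKM (-2.29, SE 0.21, limma adjusted p = 3.1e-07), and Icam1 fell from 93.7 ± 17 to 44.1 ± 3.6 RPKM (-1.07, SE 0.14, adjusted p = 2.0e-05). The DKO differences were -2.02 for C3 and -0.98 for Icam1.

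Of the 20 genes of the NADPH oxidase and of phagocytic actin, 1 was higher and 3 lower in Apoe-/- cells and 0 higher and 5 lower in DKO cells, with medians of -0.05 and -0.16. Cybb, the catalytic oxidase subunit, fell from 252 ± 45 to 76.9 ± 11 RPKM (-1.70, SE 0.16, limma adjusted p = 3.8e-07). The actin-binding proteins Coro1a and Lcp1 fell by 0.78 and 0.49. Of 13 transcription factors of myeloid and interferon control, 2 were higher and 4 lower in Apoe-/- cells and 2 higher and 3 lower in DKO cells, with medians of -0.27 and -0.28. Irf1 fell by 1.87 (SE 0.22, limma adjusted p = 4.1e-06) and Spi1, which encodes PU.1, by 0.64 (SE 0.08, adjusted p = 1.4e-05), whereas Cebpa and Bhlhe40 rose by 1.26 and 1.24. These 4 were called in DKO cells in the same directions. No listed gene was called between genotypes or in an interaction.

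**Figure D5:**
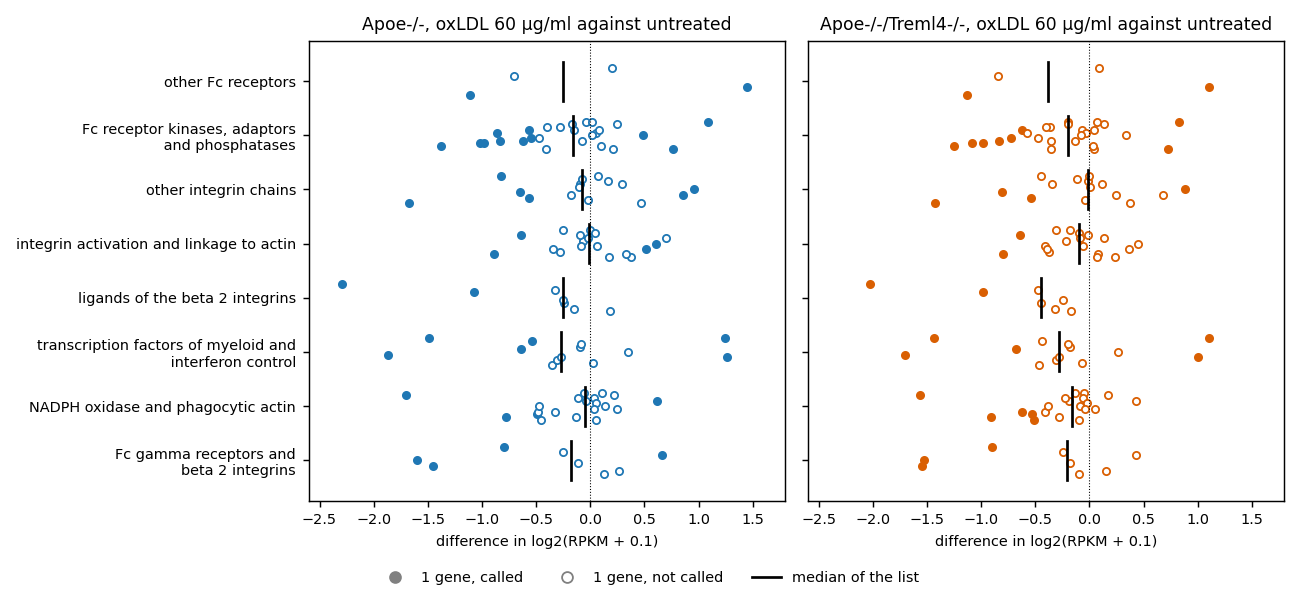
Each point is the difference in log2(RPKM + 0.1) of 1 gene between oxLDL 60 µg/ml and untreated libraries (x axis) in Apoe-/- (left) and Apoe-/-/Treml4-/- (right) cells, filled where called, with the genes in rows by list and a black bar at each list's median. Vertical offsets within a row carry no value, and genes that rose and genes that fell stand side by side in most lists, with C3 farthest left at -2.29 in Apoe-/- cells.

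The macrophage markers moved beside these genes. Their summed level was 8863 to 11690 RPKM in untreated Apoe-/- libraries and 6483 to 8445 RPKM with oxLDL 60, and 8298 to 10850 and 5505 to 7098 RPKM in DKO libraries, a sum carried mostly by Lyz2. Of the 7 markers, 1 was called higher (Mertk, by 0.68) and 3 lower (Cd14, which fell by 1.61, Lyz2 and Adgre1) in Apoe-/- cells, and 1 higher and 2 lower in DKO cells. Dendritic cell markers summed to 0.248 to 0.378 RPKM untreated and 0.183 to 0.207 RPKM with oxLDL 60, and neutrophil markers to 31.6 to 49.2 and 31.4 to 44.1 RPKM, in the Apoe-/- libraries. In untreated DKO libraries neutrophil markers summed to 38.1 to 85.1 RPKM. The part of these levels in the receptor values was not tested.

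The genes whose profile over the 18 libraries lay nearest to each member, by the root mean square difference of centred log2 values among 10101 genes with a mean of at least 1 RPKM, are given as a description. For Fcgr1 these were Tap1 (0.13), Uba7 and Tent5a (0.13 each), for Fcgr2b Fam102b (0.17), Lacc1 (0.18) and Sod2 (0.19), and for Itgal Sod2 (0.12), Ahrr (0.15) and Cd14 (0.15). For Fcgr3 they were Cd84 (0.08), Psap (0.09) and S1pr1 (0.10), and for Fcgr4 Nradd (0.19), Ctss (0.19) and Npy (0.21). Anxa3, Serinc5 and Stom were nearest to Fcer1g, Sirpa, Serp1 and Serinc5 to Itgam, and Brap, Ctsa and Tmem115 to Itgb2, at distances of 0.04 to 0.07. Among the members themselves Fcer1g and Itgam were closest (0.11), Fcgr3 was nearest to Itgb2 (0.20), Fcgr2b to Itgal (0.22), and Fcgr3 and Itgal were farthest apart (0.92). This distance is small between any genes that vary little. The SD of a gene's own profile over the 18 libraries was 0.12 for Fcer1g, 0.17 for Itgam and 0.11 for Itgb2. For Fcgr3 it was 0.29, for Fcgr2b 0.67 and for Itgal 0.69.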

How the data were processed

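RNA-seq of 18 BMDM libraries was used, with groups and replicate numbers from the sample labels. Per the labels and the study's methods the authors aligned reads with STAR to mm10 and deposited 1 table of RPKM per gene; the annotation and the treatment of ambiguous reads were not given in the sources used here. Read depth was estimated from the steps of low RPKM values with GENCODE M21 lengths, where 52.8% to 58.9% of values lay within 0.05 reads of a whole number (10% by chance), so no count test was run; 3 reads over 1 kilobase equal 0.0554 to 0.0756 RPKM.

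RPKM values were tested as log2(RPKM + 0.1), which understates changes of low genes, with limma 3.58.1 (R 4.3.3) on all 18 libraries with 6 group means and a mean-variance trend. A gene entered if 3 or more libraries reached 0.1 RPKM (12838 of 18668, all 8 members among them), with Benjamini-Hochberg adjustment inside each of 11 comparisons. Calls required an adjusted p under 0.05 and a fold change of at least 1.4; intervals are 95% and two-sided, and exact permutation tests are two-sided. The model was tested on simulated data in which each library was drawn independently. That test therefore does not cover libraries that vary together. Libraries of the same number within a genotype deviated together (18 of 18 pairs with a correlation over 0.1, median 0.41). Of 27 same-numbered pairs of different genotypes, 9 had a correlation over 0.1 (median -0.17). Of 54 pairs that differed in both genotype and number, 29 did (median 0.13). Libraries from 1 animal would deviate together, but the labels name no animals. A term for each replicate number within a genotype was therefore an alternative. Named genes were the 8 members, up to 3 called genes with the largest rise and 3 with the largest fall of each list in Apoe-/- cells at oxLDL 60, and the 3 genes nearest to each member in profile. Some genes that this rule selects are not reported here. Members and lists were chosen with earlier results of these data known. Other settings tried were pseudocounts of 1 and 0.01, no filter, median-ratio rescaling, only the groups compared, and the replicate number within a genotype as a random effect. A term for and removal of libraries with Xist transcripts, no trend, no limit on the fold change and leaving out each library were also tried. Sequence windows came from GENCODE M21 and RefSeq (GRCm38.p6). Symbols matched GENCODE M21 for 97.3% of rows. Python 3.11.15 and matplotlib 3.10.9 were used for figures.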

Additional observations from a re-analysis of the deposited data

How the results depend on the processing

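Of 14 member differences called, 11 kept their call and direction under each alternative, and none reversed. The number of members called at oxLDL 60 stayed at 4 in Apoe-/- cells without any 1 library and was 3 or 4 in DKO cells. At oxLDL 10 it was 1 in both genotypes and 0 to 2 with 1 library left out. It became 0 in DKO cells with no filter or no trend. With either replicate block (a fixed term or a random effect) it became 2 in both genotypes. The same held with a term for Xist-positive libraries and without them, Itgal being the one added. In Apoe-/- cells it was also 2 when libraries of the other groups were kept out of the model. The replicate block changed no other call. Between genotypes 1 member was called at each dose without Xist-positive libraries. The cause of these changes was not tested. Both pseudocounts left each call as it was. Fcgr4 had the fewest reads of the members, and the part of depth in its spread was not tested. With 3 libraries a group no single gene can pass an exact test.

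Of all 88 member differences, 14 of which were called, 31 changed sign when 1 library was left out. These 31 were small differences that were not called, none over 0.18 in size, with the following ranges. Against untreated Apoe-/- cells they were -0.089 to 0.057 for Fcer1g, -0.12 to 0.26 for Fcgr4 and -0.013 to 0.14 for Itgb2 at oxLDL 10, and -0.016 to 0.25 for Fcgr4 at oxLDL 60. In DKO cells they were -0.26 to 0.21 for Fcgr4 and -0.11 to 0.052 for Itgam at oxLDL 10, and -0.29 to 0.077 for Fcgr4 at oxLDL 60. Between doses Fcgr4 had -0.13 to 0.24 in Apoe-/- and -0.30 to 0.16 in DKO cells. Between genotypes untreated they were -0.28 to 0.20 for Fcgr1, -0.15 to 0.075 for Fcgr3, -0.34 to 0.019 for Itgal and -0.062 to 0.091 for Itgb2; with oxLDL 10, -0.14 to 0.088 for Fcgr3, -0.005 to 0.46 for Fcgr4, -0.34 to 0.065 for Itgal and -0.018 to 0.051 for Itgb2; with oxLDL 60, -0.031 to 0.31 for Fcgr4 and -0.22 to 0.047 for Itgal. The interaction at 10 µg/ml had -0.11 to 0.034 for Fcer1g, -0.046 to 0.44 for Fcgr1, -0.056 to 0.24 for Fcgr2b, -0.10 to 0.13 for Fcgr3, -0.37 to 0.10 for Fcgr4, -0.21 to 0.27 for Itgal and -0.064 to 0.09 for Itgb2, and at 60 µg/ml -0.13 to 0.015 for Fcer1g, -0.33 to 0.15 for Fcgr1, -0.24 to 0.061 for Fcgr2b, -0.10 to 0.29 for Itgal and -0.067 to 0.10 for Itgam.

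Median-ratio rescaling changed the sign of 8 such values: the interaction of Fcer1g at 10 (0.0033) and 60 µg/ml (0.069), of Fcgr1 (0.028), Fcgr2b (0.038) and Itgb2 (0.025) at 60 µg/ml, Fcgr4 between doses in DKO cells (0.058), and Itgb2 between genotypes untreated (-0.076) and with oxLDL 10 (-0.024). Leaving out Xist-positive libraries did so for 6: Fcer1g at oxLDL 10 in Apoe-/- cells (0.022), Fcgr4 at oxLDL 10 in DKO cells (0.01), Fcgr3 between genotypes untreated (0.17) and with oxLDL 10 (0.19), and the interaction at 10 µg/ml of Itgal (-0.046) and Itgb2 (-0.05).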
